A study of Marchantia polymorpha and Klebsormidium nitens with 56 samples.

Results

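The heat response of the line titled hsfa1x was described in gemmalings of the liverwort Marchantia polymorpha from 4 RNA sequencing libraries, 2 of heated and 2 of control plants, out of 28 libraries in the same count table and 56 samples in the series. The 4 libraries were taken by their titles and by the sheet that pairs titles with columns. Gemmalings are young plants that grow from gemmae, the asexual buds formed in cups on the thallus. All plants were 7 days old and had grown at 22 °C, and heat was 37 °C; the hours of heat of these samples are not given in the labels. The hsfa1x line was compared with BC3, the female wild type of its background, which is labelled WT and had 2 heated and 2 control libraries. It was also compared with the line hsfa1y and with Tak-1, the male wild type that is the background of hsfa1y, each with 2 heated and 2 control libraries. One summed level is also given for hsfb1, labelled as a knockout of a class B heat shock factor in the male background, with the same numbers of libraries. The sheet lists hsfa1x and hsfa1y as knockouts, while the genotype field gives "ox" for hsfa1x and "ko" for hsfa1y. The labels of hsfa1x therefore disagree with each other. The mutated gene is not paired by name with an identifier of the table, so the state of the target was not checked, and directions below are those of the line as titled. The labels do not say how many independent mutants or clones the line stands for.

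Heat shock transcription factors of class A1 are held inactive by chaperones in unheated plant cells and, when proteins unfold, form trimers that bind heat shock elements in promoters. In Arabidopsis they start a cascade that raises HSP90, HSP70, HSP100 and small heat shock proteins, later class A2 factors and enzymes that remove reactive oxygen. HSP90 proteins both fold client proteins and restrain these factors, which makes HSP90 transcripts a common readout of the pathway. The series uses HSFA1X and HSFA1Y in the names of these lines, and further HSFA1 names elsewhere.

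Libraries of the table held 17728437 to 23996844 counted reads, and the 4 hsfa1x libraries 18556192 to 23085366. Reads on identifiers of the male V chromosome numbered 7755 to 13118 in hsfa1x libraries, 11809 to 12857 in BC3 and 44090 to 48627 in Tak-1, which sets hsfa1x beside the female wild type. The count table held 0 identifiers of the female U chromosome, so genes of that chromosome were not measured. Among the 8 libraries of hsfa1x and BC3 the first principal component held 66.2% of the variance and separated heated from control libraries, and the second held 13.8% and separated the lines. The pair of hsfa1x control libraries differed more than most pairs, with a chi-square of 17.3 per degree of freedom against 7.73 for the heated pair and 2.29 to 17.7 over all 14 groups. In the first of these control libraries several genes of DNA replication and the cell cycle were lower. MpCYCA, an A-type cyclin, had 4.62 CPM there and 11.7 CPM in the second library, and MpMCM2, a subunit of the replicative helicase, had 6.21 and 14.3 CPM. CPM are the usual counts per unit of library size, after TMM scaling of the libraries. Counts of the histone, cell cycle, LEA, PR and basic helix-loop-helix lists and of the difference from BC3 are given with and without it.

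Heat changed a large share of the transcriptome of hsfa1x. Of 13432 genes tested, 2657 rose (19.8%) and 2956 fell (22%) at an adjusted p below 0.05 by edgeR's quasi-likelihood test. At least 2-fold changes numbered 735 upward (5.47%) and 730 downward (5.43%). The 5613 genes called were 41.8% of those tested. Heated and control libraries did not overlap for 5605 of them, and for 8760 (65.2%) of all genes tested, so that with 2 libraries against 2 a lack of overlap alone says little. Heat changed 47.8% of genes in BC3, where 3205 rose (23.9%) and 3218 fell (24%). It changed 44.5% in hsfa1y, where 2969 rose (22.1%) and 3008 fell (22.4%), and 51.1% in Tak-1, where 3442 rose (25.6%) and 3423 fell (25.5%). With library totals alone the split in hsfa1x was 2510 higher and 3094 lower, and it was 2275 and 4516 in BC3, 3833 and 2332 in hsfa1y and 2782 and 4181 in Tak-1. Whole plants were measured, so fewer cells of a type and less RNA per cell cannot be told apart.

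HSP90 chaperones were raised by heat in hsfa1x. Of the 5 HSP90 genes with a symbol, 4 rose, 0 fell and 1 did not pass the test, and the median log2 change was 2.63, beside -0.000439 over all genes tested. MpHSP90-1 had 394 and 404 CPM in the control libraries of hsfa1x and 4560.4 and 4632 CPM in the heated ones. The BC3 libraries had 387 and 394 CPM in controls and 4710.5 and 4611 CPM after heat. Heated libraries of both lines thus stood far above all controls, and those of hsfa1x and BC3 were within a few percent of each other. The log2 change of MpHSP90-1 in hsfa1x was 3.53 ± 0.07 (SE; adjusted p = 3.93e-22). MpHSP90-4 rose from 169 and 195 to 1510.4 and 1546 CPM in hsfa1x, a log2 change of 3.07 ± 0.08. Its heated BC3 libraries had 1809 and 1813 CPM, above both heated hsfa1x libraries, and the heated level was 0.24 ± 0.08 log2 units lower in hsfa1x (adjusted p = 0.0326). MpHSP90-2 rose from 80.3 and 95.3 to 543 and 543 CPM, a log2 change of 2.63 ± 0.08. MpHSP90-3 rose from 217 and 297 to 468 and 474 CPM, a log2 change of 0.87 ± 0.10. MpHSP90-5 had 2.16 and 1.97 CPM in controls and 1.11 and 1.29 CPM after heat and did not pass the test (adjusted p = 0.0503), though it was called lower with library totals alone (-0.80, adjusted p = 0.047). None of the 5 HSP90 responses passed edgeR's test of a difference between hsfa1x and BC3. The estimates of that difference ran from -0.54 for MpHSP90-5 to 0.16 for MpHSP90-3 on the log2 scale. Without the second hsfa1x control library, MpHSP90-3 responded more in hsfa1x than in BC3, by 0.39 (adjusted p = 0.047).

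MpHSF1 was the heat shock factor that the reference names, and it rose from 22.3 and 20.1 CPM to 46.7 and 42 CPM in hsfa1x. Its log2 change was 1.07 ± 0.13 (adjusted p = 3.02e-07), beside 1.20 ± 0.13 in BC3, where 19.2 and 23.7 CPM became 50.2 and 48.3 CPM. The groups of heated and control libraries did not overlap in either line, and the difference between the lines did not pass the test (adjusted p = 0.744). MpCNX, calnexin, a lectin chaperone of the endoplasmic reticulum, rose from 429 and 485 to 1116 and 1129 CPM, a log2 change of 1.29 ± 0.07. The reference gives no symbols of small heat shock proteins, HSP70, HSP100 or HSP40, so these classes could not be followed by name.

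**Figure D1:**
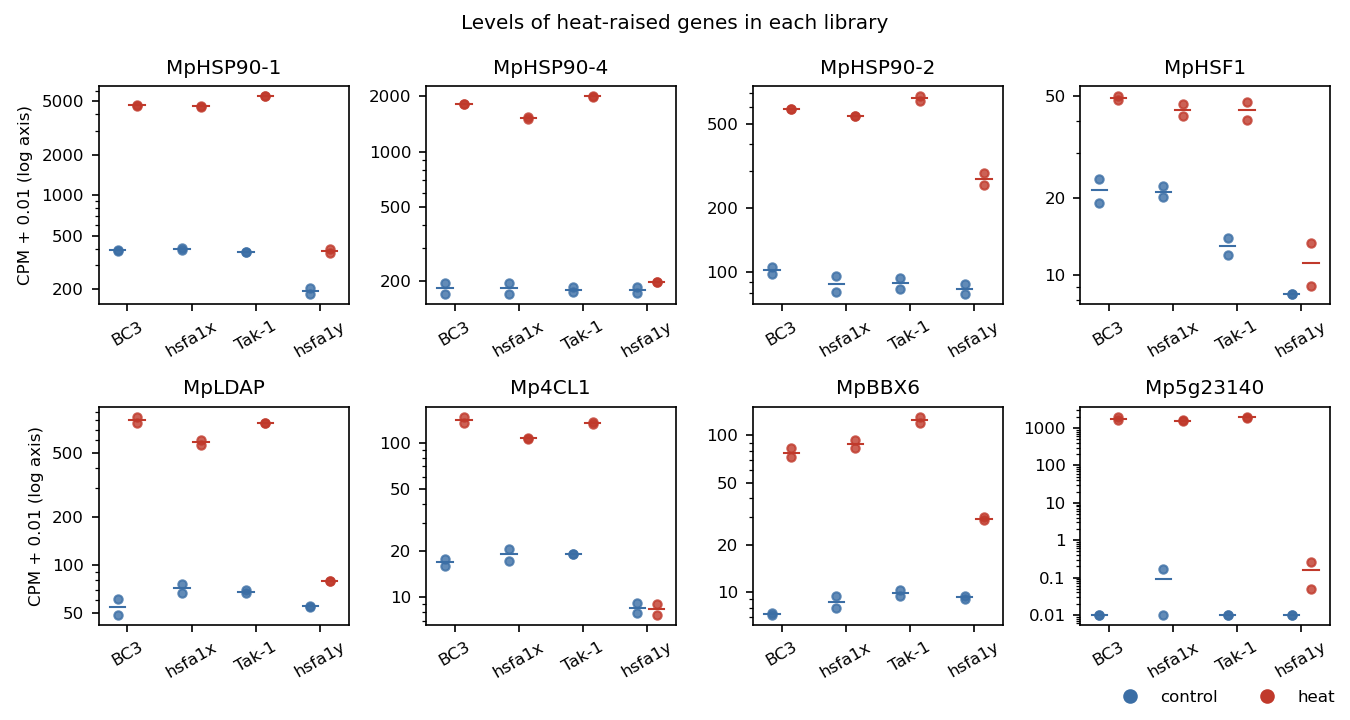
Levels of 8 heat-raised genes in CPM (plus 0.01) on a log axis, with a dot for each of the 2 control (blue) and 2 heated (red) libraries of BC3, hsfa1x, Tak-1 and hsfa1y and a bar at the group mean. Heated hsfa1x libraries lie near the heated libraries of both wild types in every panel, while heated hsfa1y libraries lie lower.

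The strongest inductions in hsfa1x were in genes known only by their identifiers. Mp5g23140, on chromosome 5, had 0 and 0.16 CPM in control libraries, from 3 reads in all, and 1604 and 1510.5 CPM after heat. The ratio was 19900, with a 95% counting interval of 6810 to 96500. Its neighbour Mp5g23150 had 0 and 0.319 CPM in controls and 842 and 807 CPM after heat, a ratio of 5260 with an interval of 2420 to 14300. On chromosome 7, Mp7g07900 went from 0.103 and 0.0532 to 1417 and 1413 CPM, a ratio of 18100 with an interval of 6180 to 87500. Its neighbour Mp7g07910 went from 0.0513 and 0.266 to 981 and 961 CPM, a ratio of 6200 with an interval of 2850 to 16900. These intervals cover counting error only, and reads shared between neighbouring copies could be split by the counting. The 4 genes were silent or nearly so in controls and were among the abundant transcripts of every heated hsfa1x library. In heated BC3 they reached 1644 and 1933 CPM, 1036 and 1269.6 CPM, 1684 and 1923 CPM and 1239.7 and 1484 CPM, in the same order. Heated levels were lower in hsfa1x than in BC3 for Mp5g23150, by 0.48 ± 0.11 log2 units, for Mp7g07900, by 0.35 ± 0.09, and for Mp7g07910, by 0.49 ± 0.11 (adjusted p = 0.00375, 0.0126 and 0.00544). For Mp5g23140 the heated levels did not pass the test (adjusted p = 0.24).

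Among genes with a symbol and a mean of at least 5 CPM, the 12 highest log2 changes ran from 3.53 for MpHSP90-1 to 2.40 for MpPKS/CHS13 and held 3 of the HSP90 genes. MpLDAP, a protein that coats lipid droplets, rose from 76.2 and 66.3 CPM to 604 and 564 CPM in hsfa1x, a log2 change of 3.03 ± 0.09 (adjusted p = 7.77e-19). MpOLEOSIN, another droplet coat protein, rose from 1.39 and 0.798 to 5.45 and 4.63 CPM, a log2 change of 2.20 ± 0.27. Of the 4 lipid droplet genes tested, these 2 rose and 0 fell. MpLDAP stood at 48.6 and 60.8 CPM in control BC3 and 768 and 844 CPM in heated BC3. Its response was therefore smaller in hsfa1x, by 0.85 ± 0.11 log2 units (adjusted p = 6.68e-05), with a higher control level and a lower heated level, neither of which overlapped with BC3.

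MpBBX6, a B-box zinc finger protein, rose from 9.5 and 7.93 to 83.5 and 93.8 CPM, a log2 change of 3.34 ± 0.11. Mp4CL1, a 4-coumarate:CoA ligase that activates hydroxycinnamic acids, rose from 20.6 and 17.2 to 105 and 108 CPM, a log2 change of 2.49 ± 0.10. Heated BC3 had 147 and 133 CPM of Mp4CL1, and its response was 0.57 ± 0.14 log2 units smaller in hsfa1x (adjusted p = 0.0132). MpPKS/CHS13, of the chalcone synthase family that makes flavonoid precursors, rose from 9.96 and 8.83 to 50.1 and 48.9 CPM, a log2 change of 2.40 ± 0.22. MpExpansin20, of a family of proteins that loosen cell walls, rose from 2.21 and 2.18 to 16.2 and 14.6 CPM, a log2 change of 2.81 ± 0.20. MpHA8, a plasma membrane proton pump, rose from 20 and 21.5 to 114 and 117 CPM, a log2 change of 2.48 ± 0.09. MpABCB6, of the ABCB transporters, rose from 40.2 and 26.3 to 165 and 220.0 CPM, a log2 change of 2.53 ± 0.16. MpGH97, of a glycoside hydrolase family, and MpLOVA rose by 2.56 ± 0.21 and 2.64 ± 0.11 on the log2 scale.

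Among genes with a symbol and a mean of at least 5 CPM, the 12 lowest log2 changes ran from -5.04 for MpBHLH4 to -2.65 for MpCYP707A. MpBHLH4, a basic helix-loop-helix factor, went from 55.5 and 37.8 CPM to 1.29 and 1.54 CPM, a log2 change of -5.04 ± 0.25 (adjusted p = 6.87e-14). MpCTR1, the Raf-like kinase that in Arabidopsis represses ethylene signalling, went from 594 and 511 to 73.6 and 74.8 CPM, a log2 change of -2.90 ± 0.10. MpIAMT1, which methylates the auxin indole-3-acetic acid, fell from 10 and 8.78 to 0.931 and 0.946 CPM. MpSAUR2, of the small auxin up RNA family, fell from 159 and 143 to 22 and 21.4 CPM, a log2 change of -2.80 ± 0.09. MpCYP707A, an enzyme that breaks down abscisic acid, fell from 13.1 and 11.2 to 1.91 and 1.94 CPM, a log2 change of -2.65 ± 0.22. MpROXY1, a glutaredoxin, fell from 27.8 and 28.2 to 4.26 and 4.63 CPM. MpIDA4, of a family of small signal peptides, fell from 10.5 and 10.8 to 1.11 and 1.19 CPM. The receptor kinase MpRLK-Pelle_RKF3c, MpCache2, the ethylene response factor MpERF11, MpNAC7 and MpBHLH39 fell by 3.91, 3.09, 3.06, 2.87 and 2.84 on the log2 scale.

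The 4 identifiers with no symbol that fell most under the naming rule were low in heated libraries and moderate in controls. They met the limit of a mean of 5 CPM only through the hsfa1x controls, so this pattern follows from the choice. Mp2g20590 had 11.9 and 7.29 CPM in controls and 0.443 and 0.498 CPM after heat, and Mp8g01970 had 16 and 12.7 CPM and 0.709 and 1.15 CPM. Their log2 changes were -4.33 ± 0.39 and -3.96 ± 0.35. Control levels of both stood above those of BC3, which had 2.23 and 1.8 CPM of Mp2g20590 and 5.79 and 3.74 CPM of Mp8g01970, while heated levels did not pass the test of a difference. The choice by hsfa1x controls favours higher control levels there than in BC3. Mp4g03340 and Mp5g08770 fell by 3.74 and 3.61 on the log2 scale.

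Hormone pathway counts stand beside 19.8% of all genes tested that rose and 22% that fell. Lists other than auxin held 13 genes or fewer, and the share of jasmonate genes that fell was near that of all genes. Of 32 auxin genes that passed the filter on low counts, 1 rose and 18 fell, with a median log2 change of -0.50. The auxin response factor MpARF3 fell from 113 and 99.2 to 22.9 and 22 CPM, and its fall was smaller in hsfa1x than in BC3 by 0.55 ± 0.12 log2 units (adjusted p = 0.00882). MpPIN2, of the auxin efflux carriers, was the member that rose, from 2.77 and 3.19 to 7.45 and 7.27 CPM. Of 10 cytokinin genes, 4 rose and 1 fell. MpIPT1 and MpLOG, of cytokinin synthesis, rose by 0.70 ± 0.10 and 0.59 ± 0.09 on the log2 scale. MpCKX2, of the enzymes that degrade cytokinins, fell by 1.85 ± 0.64 (adjusted p = 0.0216 by edgeR's test). Of 8 abscisic acid genes, 4 rose and 3 fell. The receptor MpPYL1 rose from 83.2 and 84 to 134 and 152 CPM and the bZIP factor MpABI5B from 16.4 and 17.7 to 26.5 and 29.5 CPM, while MpABI3A, a B3 factor, fell from 39.4 and 40.9 to 28.8 and 27 CPM. Of 13 jasmonate genes 1 rose and 3 fell, among them MpJAZ, the repressor of the pathway, from 47.8 and 42.7 to 13.2 and 13.8 CPM. Of 7 ethylene genes 1 rose and 2 fell.

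Counts in transcription factor families are read beside the 19.8% of all genes tested that rose and the 22% that fell, and several, such as MYB and GRAS factors, were near those shares. Of 38 basic helix-loop-helix factors, 8 rose and 15 fell; without the first hsfa1x control library 4 rose and 15 fell, and without the first heated library 5 rose and 15 fell. Of 16 ERF factors 2 rose and 7 fell, of 13 WRKY factors 3 rose and 5 fell, and of 13 bZIP factors 5 rose and 6 fell. MYB factors numbered 35, with 7 higher and 8 lower, and the 11 GRAS factors had 2 higher and 3 lower. NAC factors numbered 7, with 2 higher and 2 lower, and the 6 B-box factors had 3 in each direction. Both MADS factors fell. MpBHLH15 rose from 264 and 246 to 604 and 649.5 CPM, and MpWRKY12 fell from 48.3 and 40.8 to 11.4 and 11 CPM. MpWRKY3 had 0.103 and 0.745 CPM in controls and 3.28 and 3.19 CPM after heat, a log2 change of 2.93 ± 0.45.

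Stress and defence lists, and the lists that follow, also stand beside 19.8% higher and 22% lower over all genes tested. The rises of antioxidant enzymes and receptor kinases and the falls of NBS-LRR genes were near these shares. Of 60 antioxidant enzymes tested, 14 rose and 9 fell. MpGST9, a glutathione transferase, rose from 153 and 153 to 645 and 595 CPM and MpAPX3, an ascorbate peroxidase, from 123 and 125 to 446 and 469.7 CPM, while MpGST34 fell from 59.9 and 51.7 to 32.6 and 31.1 CPM. The counts covered 164 class III peroxidases, of which 49 passed the filter, and of these 1 rose and 14 fell. MpPOD26 fell from 233 and 153 to 35.8 and 43.2 CPM. Of 24 pathogenesis-related (PR) genes, 0 rose and 12 fell, with a median log2 change of -0.41, and 7 fell without the first hsfa1x control library. MpPR9d had 6.72 and 3.88 CPM in controls and 0.177 and 0.0996 CPM after heat. Of 21 NBS-LRR genes, which encode intracellular immune receptors, 8 rose and 4 fell. MpNBS-LRR17 rose from 0.719 and 0.798 to 8.56 and 9.51 CPM, a log2 change of 3.56 ± 0.26. Receptor kinases numbered 73, with 12 higher and 23 lower.

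Of 40 late embryogenesis abundant (LEA) proteins, a family known for protection during drying, 12 rose and 5 fell, and 8 rose and 6 fell without the first hsfa1x control library. MpLEA-like18 went from 0.205 and 0.266 CPM to 3.19 and 2.59 CPM. MpLEA-like33 fell from 248 and 210.2 to 106 and 101 CPM. Of 58 phenylpropanoid enzymes 19 rose and 17 fell. Members of the phenylalanine ammonia lyase family, which opens the pathway, moved in both directions. MpPAL6 rose from 2.05 and 2.71 to 6.3 and 9.21 CPM, and MpPAL1 fell from 4.77 and 6.65 to 1.68 and 2.09 CPM. Of 25 cell wall genes 6 rose and 8 fell.

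Counts of lowered histone genes depended on the control library left out. Of 25 histone genes tested, 2 rose, 12 fell and 11 did not pass, with a median log2 change of -0.52. MpH4c fell from 23.4 and 27.9 to 11.1 and 11 CPM, while MpH2B.1 rose from 179 and 154 to 319.8 and 304 CPM. Without the first control library of hsfa1x, 1 histone gene rose and 18 fell (median -0.80), and without the second, 2 rose and 8 fell (median -0.10). Of 20 cell cycle genes 0 rose and 2 fell, with a median of -0.19. These were MpKRP, an inhibitor of cyclin-dependent kinases, and MpRBR, the retinoblastoma-related protein. The median was -0.37, with 3 lower, without the first control library, and 0.27, with 2 higher and 2 lower, without the second. In BC3, 13 of the 20 cell cycle genes fell and 0 rose, beside 24% and 23.9% of all genes tested there. By the test of the difference in response, 1 of the 20 was lower in hsfa1x, 0 were higher and 19 did not pass. The median difference in response was 0.61, and 0 of the 20 differed between the heated libraries of the lines. The summed level of the cell cycle list was 435 and 476 CPM in hsfa1x controls and 379 and 376 CPM after heat. In BC3 it was 514 and 472 CPM in controls and 362 and 364 CPM after heat. The part of the first control library in the histone and cell cycle counts was not tested beyond these values.

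**Figure D2:**
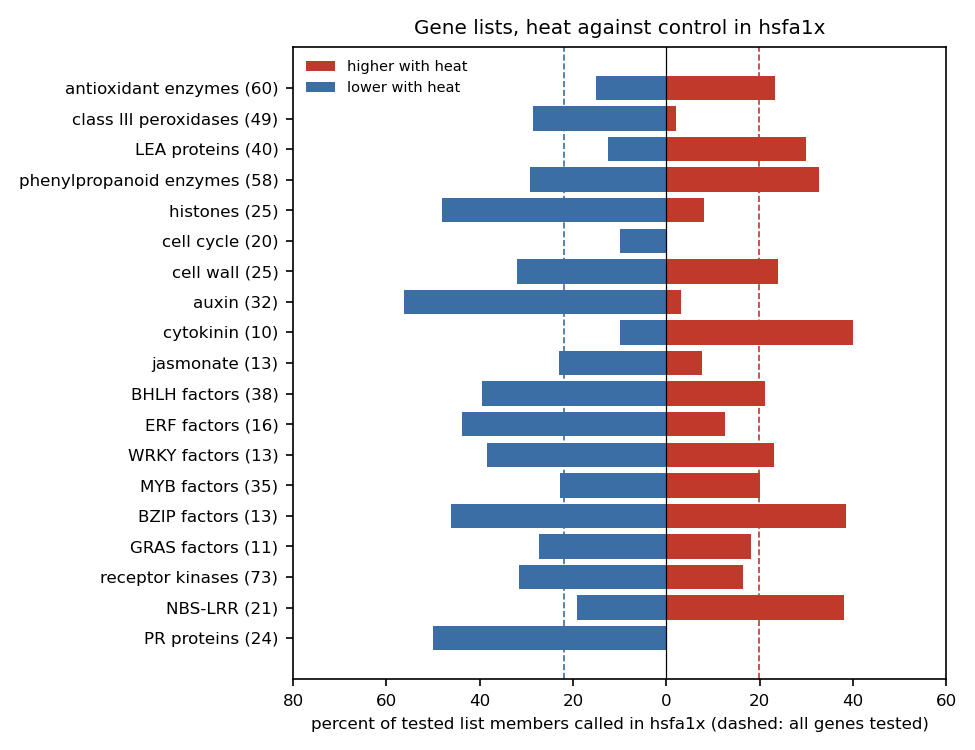
Percent of the tested members of 19 gene lists that rose (red, to the right) or fell (blue, to the left) with heat in hsfa1x, with the number tested in brackets and dashed lines at the shares of all genes tested, 19.8% higher and 22% lower. Auxin genes, PR proteins and histones have the longest bars to the left.

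Further families, chosen after values had been seen, are given by count. Of 82 cytochromes P450 8 rose and 29 fell, of 28 polyphenol oxidases 4 rose and 10 fell, and of 21 autophagy genes 2 rose and 9 fell. Pentatricopeptide proteins, which process organelle RNA, numbered 72, with 28 higher and 20 lower. MpPPR_41 rose from 48.6 and 49.5 to 192 and 191 CPM. MpATG8b, of the ubiquitin-like proteins of autophagosomes, fell from 299 and 247 to 159.6 and 155 CPM. Regulators of reproduction were read as markers of other cells, and of 3 tested 1 rose and 1 fell. MpRKD, an RWP-RK factor of germ cells, fell from 72.7 and 80.6 to 59.8 and 59.1 CPM. MpDUO1, a MYB factor of the male germ line, had 0.975 and 0.426 CPM in hsfa1x controls and 2.35 and 2.54 CPM after heat. MpDUO1 also rose in BC3, by 2.24 on the log2 scale.

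Most of the heat response of hsfa1x was shared with BC3. Of the 2657 genes that rose in hsfa1x, 2136 also rose in BC3, which are 80.4% of the first list and 66.6% of the second. Of those that fell, 2181 also fell in BC3 (73.8% and 67.8%). The 2-fold lists of raised genes held 6.77% of genes tested in BC3 and 5.38% in hsfa1y. In them 569 genes were common to hsfa1x and BC3 (77.4% and 62.6%), and 265 to hsfa1x and hsfa1y (36.1% and 36.7%). The 2-fold lowered lists shared 474 genes with BC3 (64.9% of those of hsfa1x) and 397 with hsfa1y (54.4%). Without the fold limit, 64.5% of the genes raised and 70% of those lowered in hsfa1x were also called in hsfa1y. Across 13432 genes the log2 changes of hsfa1x had a Pearson correlation of 0.783 with BC3, 0.738 with Tak-1 and 0.491 with hsfa1y, and Spearman correlations of 0.715, 0.695 and 0.603. These are descriptions across genes, which are not independent, and no library is shared between the responses.

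**Figure D3:**
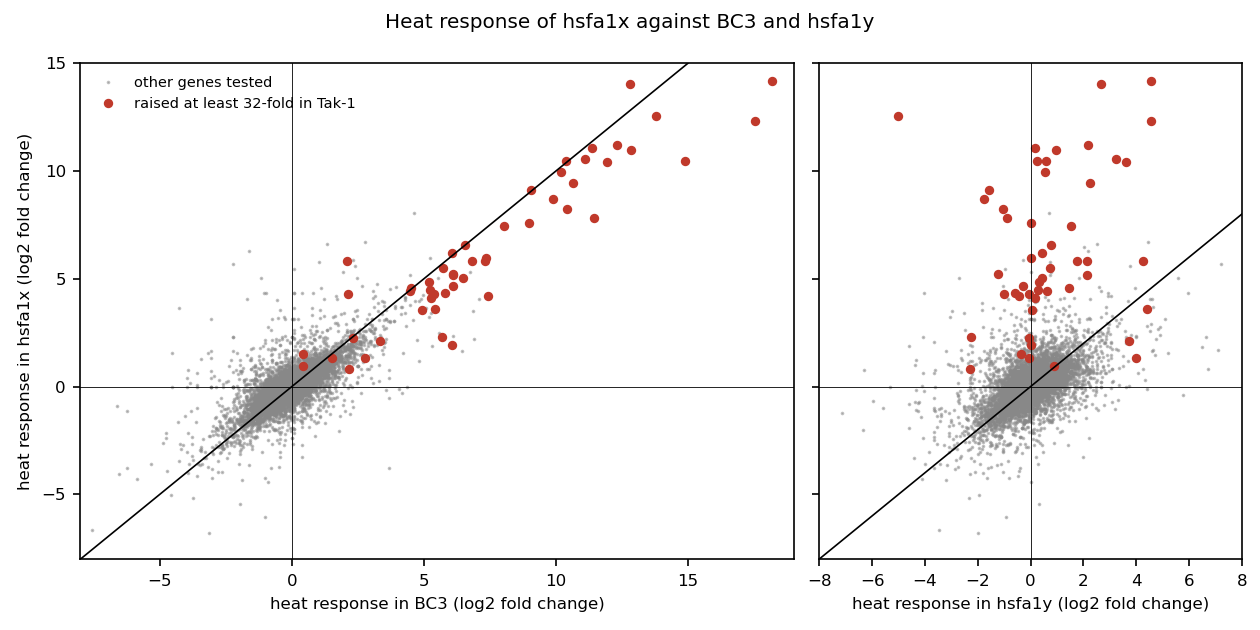
Log2 fold change with heat in hsfa1x (vertical axis) against that in BC3 (left) and hsfa1y (right) for 13432 genes, with the diagonal of equal response and red points for the 50 genes raised at least 32-fold in Tak-1. Against BC3 the red points lie mostly below the diagonal, with a median difference of -1.13 and quartiles of -1.45 and -0.178 on the log2 scale, and against hsfa1y they gather near 0 on the axis of hsfa1y.

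The response of hsfa1x differed from that of BC3 for 788 genes (5.87%), higher for 231 (1.72%) and lower for 557 (4.15%), by edgeR's test of the interaction. At least 2-fold differences numbered 51 (0.38%) and 56 (0.417%). The counts depended on the fit and the scaling. A model of the 8 libraries of hsfa1x and BC3 alone called 29 higher and 62 lower, one with the replicate numbers as a block 28 and 50, and scaling by library totals alone 442 higher and 268 lower. Without the first hsfa1x control library, 107 were higher and 226 lower. Leaving out 1 library at a time gave 83 (without the second heated hsfa1x library) to 604 (without the second hsfa1x control) higher, and 198 (without the first BC3 control) to 983 (without the second hsfa1x control) lower. Of the 557 genes with a lower response, 386 were raised in BC3 and 212 were raised in both lines. Of the 231 with a higher response, 179 were lowered in BC3. Many of these genes differed between the lines before heat. Of the 557, 331 differed between control libraries and not between heated ones, 151 between heated ones alone and 48 in both. Of the 231, the corresponding numbers were 142, 54 and 18. Level and response comparisons here share their libraries.

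Genes with a higher response in hsfa1x mostly had a lower control level there. MpLEA-like59 had 2.82 and 2.93 CPM in hsfa1x controls and 9.89 and 13.2 CPM after heat. In BC3 it had 9.53 and 12.5 CPM and 9.9 and 10.9 CPM, so the heated libraries overlapped and the controls did not. The difference in response was 2.08 ± 0.26 log2 units (adjusted p = 3.09e-05). MpCML42, a calmodulin-like protein, had 15 and 9.52 CPM in hsfa1x controls and 38 and 40.8 CPM after heat, beside 35.7 and 44.9 CPM and 34.7 and 35.6 CPM in BC3. Its difference was 1.88 ± 0.20. MpERF7 fell in both lines, from 13.2 and 13.9 CPM to 3.28 and 2.84 CPM in hsfa1x and from 33.2 and 37.9 CPM to 2.22 and 2.48 CPM in BC3, a difference of 1.78 ± 0.31. MpEXL4, of the EXORDIUM-like family, had 40.2 and 52.9 CPM in hsfa1x controls and 107 and 135 CPM in BC3 controls, and the heated libraries had 49.8 and 46.3 CPM and 44 and 54.2 CPM. The differences of MpBHLH2, MpCXC1, the histone MpH4d and MpCupin84 were 1.47, 1.23, 1.21 and 1.17. None of these last 4 passed in the model of the 8 libraries alone (adjusted p = 0.084, 0.14, 0.15 and 0.079). MpH4d and MpCXC1 also lost their calls without the first hsfa1x control library, where their differences were 0.84 and 0.86. Among identifiers, Mp2g25910 fell from 6.37 and 6.28 to 2.31 and 2.64 CPM in hsfa1x. In BC3 it fell from 28.4 and 34.8 to 1.91 and 1.87 CPM. Mp2g21040 had 6.62 and 6.22 CPM and 6.25 and 6.77 CPM beside 25.1 and 41 CPM and 7.86 and 7.59 CPM. MpBHLH2 and Mp2g25910 met the limit of 5 CPM in the naming rule only through the BC3 controls.

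Genes with a lower response in hsfa1x mostly had a higher control level there. MpERF18, an ethylene response factor, had 122 and 109 CPM in hsfa1x controls and 121 and 121 CPM after heat. In BC3 it rose from 33.5 and 33.4 CPM to 108 and 107 CPM. The heated level of BC3 was thus close to the level that hsfa1x had with or without heat, and the difference in response was -1.61 ± 0.10 (adjusted p = 1.82e-09). Control Tak-1 had 80.5 ± 1.03 CPM of MpERF18 (SD, n = 2), nearer to hsfa1x than to BC3. MpNPF14, of the nitrate and peptide transporter family, fell from 102 and 84.6 to 61.5 and 61.8 CPM in hsfa1x and rose from 35.1 and 38.2 to 53.2 and 52.4 CPM in BC3, a difference of -1.12 ± 0.13. Control Tak-1 had 82.7 ± 1.96 CPM of MpNPF14. MpUGT11, a glycosyltransferase, showed the opposite arrangement, with control levels that overlapped and heated levels that did not. It had 24.8 and 21.1 CPM and 22.3 and 24.5 CPM in hsfa1x, and 16.1 and 21.2 CPM and 43.3 and 42.3 CPM in BC3, a difference of -1.18 ± 0.19. MpGCAM1, a MYB factor needed to form gemma cups, rose from 2.36 and 2.07 to 6.21 and 5.97 CPM in hsfa1x and from 1.78 and 2.12 to 12.3 and 11.2 CPM in BC3. Its difference was -1.13 ± 0.28, and that of MpROXY1 was -1.07 ± 0.18. MpGCAM1 met the limit of 5 CPM in the naming rule only through the heated BC3 libraries. The differences of the transporter MpABCG20, the peroxidase MpPOD169 and MpERF8 were -1.24, -1.14 and -0.92. The calls of MpABCG20, MpPOD169, MpGCAM1 and MpERF8 were lost in the model of the 8 libraries (adjusted p = 0.13, 0.13, 0.15 and 0.077), and that of MpROXY1 with the replicate block (0.062). MpABCG20, MpPOD169 and MpGCAM1 also lost theirs without the first control library of either line.

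Mp3g04180 had 0.308 and 0.372 CPM in hsfa1x controls, 491 and 486 CPM in heated hsfa1x, 0 and 0.0451 CPM in BC3 controls and 789 and 944 CPM in heated BC3. The fitted difference in response, -4.43 ± 1.03, rested on control libraries near 0 reads and was not called without the first BC3 control. The heated levels alone differed by -0.83 ± 0.10 log2 units (adjusted p = 5.27e-06). Mp5g19880 rose from 49.8 and 46.8 to 105 and 90.6 CPM in hsfa1x and from 5.26 and 6.67 to 52.8 and 64.3 CPM in BC3, with a difference of -2.27 ± 0.20.

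**Figure D4:**
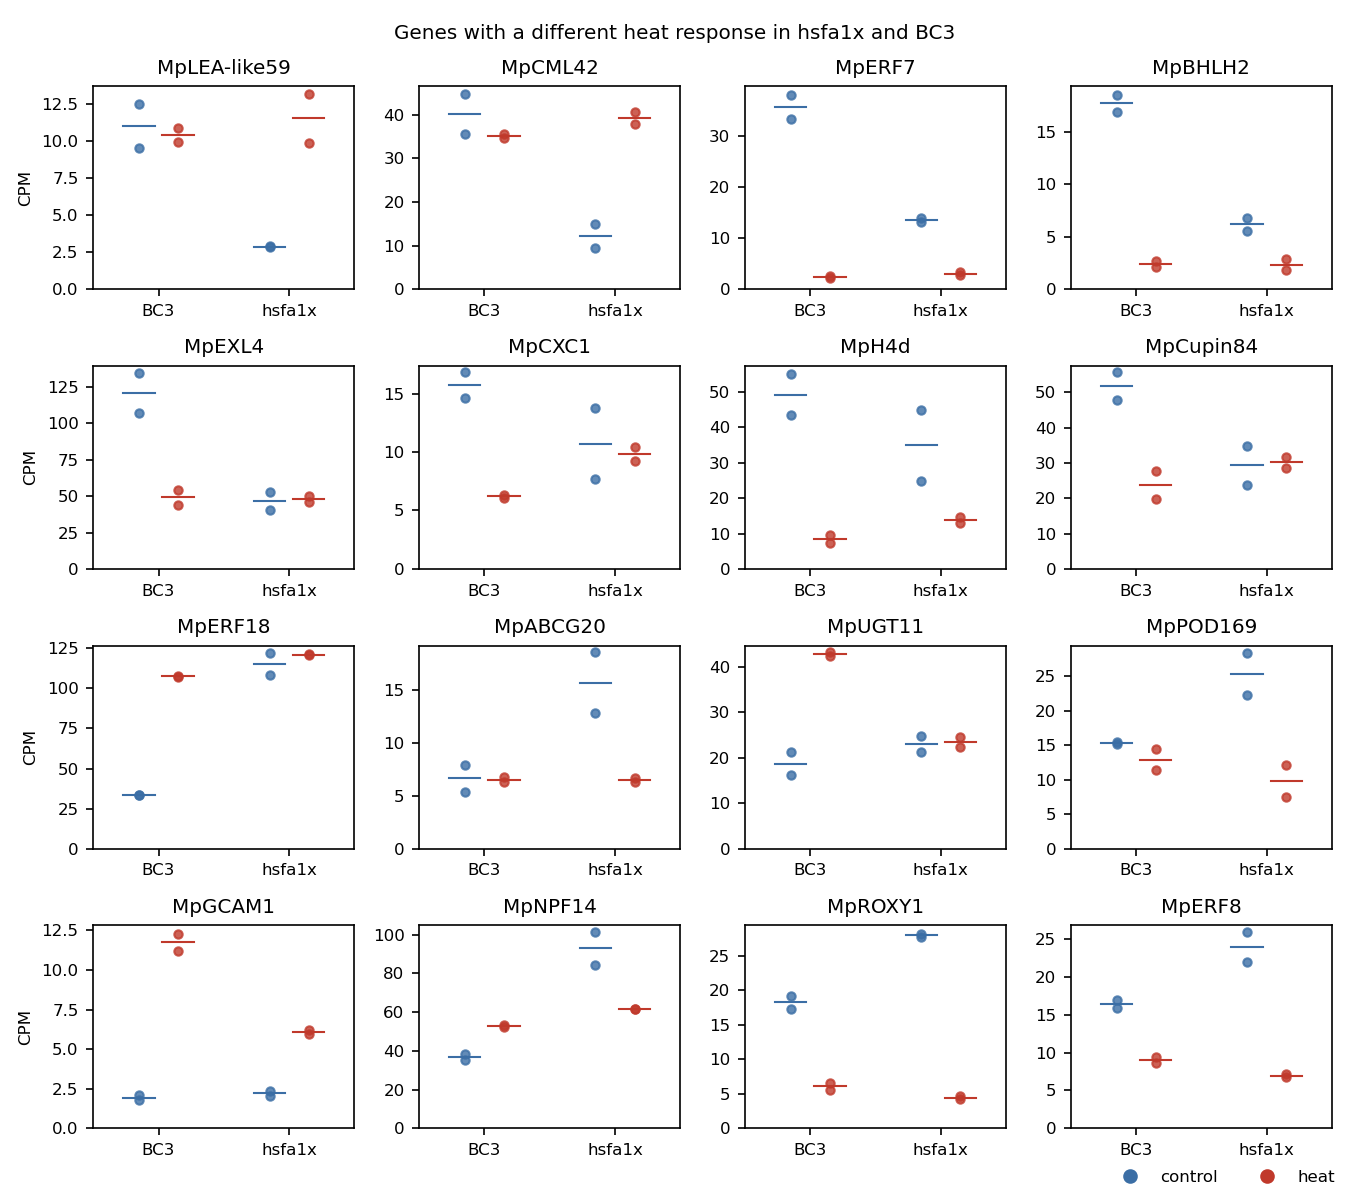
Levels in CPM of 16 genes whose heat response differed between hsfa1x and BC3, with a dot for each of the 2 control (blue) and 2 heated (red) libraries and a bar at the mean; the upper 8 panels have a higher response in hsfa1x and the lower 8 a lower one. In most panels the lines differ in the control libraries and lie closer together after heat. MpUGT11, MpGCAM1 and MpH4d overlap in the controls and not after heat. MpCXC1, MpROXY1 and MpERF8 are among the panels without overlap in either state.

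The lines were therefore also compared at each temperature. Without heat, 2508 genes differed between hsfa1x and BC3 (18.7%), 1520 higher (11.3%) and 988 lower (7.36%) in hsfa1x. After heat 1741 differed (13%), 762 higher (5.67%) and 979 lower (7.29%). Leaving out the first hsfa1x control gave 911 and 498 in the controls. With library totals alone the split was 1271 and 1418 without heat and 1122 and 633 after heat. PR genes stood out in the controls. Of 24 tested, 11 were higher and 1 lower in hsfa1x, with a median log2 difference of 1.20, beside -0.00636 over all genes. Their summed level was 464.6 and 426.5 CPM in hsfa1x controls and 227.1 and 236.1 CPM in BC3 controls, and 363.5 and 315.4 CPM against 225.2 and 233.6 CPM after heat. Of 49 class III peroxidases 11 were higher and 5 lower in hsfa1x controls. Cell wall genes had the opposite balance, with 1 of 25 higher and 12 lower. MpGST9 stood at 153 and 153 CPM in hsfa1x controls and 95.2 and 85.4 CPM in BC3 controls, and its response was 0.86 ± 0.11 log2 units smaller in hsfa1x. Of 17 peroxins, proteins of peroxisome formation, 5 were higher in hsfa1x controls and 0 lower, and 3 responded less to heat than in BC3.

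Genes that heat raised in Tak-1 were used as a heat list chosen on libraries that enter neither line. Of the 958 genes raised at least 2-fold in Tak-1 (7.13% of those tested), 812 rose and 0 fell in hsfa1x, with a median log2 change of 1.21. In BC3, 836 rose and 1 fell, with a median of 1.43. The response was lower in hsfa1x than in BC3 for 124 of them and higher for 5, beside 4.15% and 1.72% of all genes tested. The model of the 8 libraries alone called 62 lower responses among all genes, so at most 62 of the 124 can be called in it; the median difference of the 958 was -0.222 there. The median difference was -0.226, beside -0.0136 over all genes, and 70.6% of the 958 lay below BC3, beside 51.8% of all genes tested. With library totals alone the median difference was -0.101, when the median of all genes moved to 0.108. Of the 1119 genes lowered at least 2-fold in Tak-1 (8.33%), 725 fell and 16 rose in hsfa1x, with a median of -0.974. Their response was higher than in BC3 for 97 and lower for 43, with a median difference of 0.192.

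The median difference in response between hsfa1x and BC3 grew in size over classes of genes raised more in Tak-1. For 651 genes raised 2- to 4-fold there, the median log2 change was 0.99 in hsfa1x and 1.17 in BC3. For 174 genes raised 4- to 8-fold it was 1.87 and 2.2, and for 83 raised 8- to 32-fold it was 3.1 and 3.35. For the 50 raised at least 32-fold it was 5.64 and 6.29. Median differences in response were -0.186, -0.317, -0.418 and -1.13 in this order. The last value contains fitted folds of genes near 0 reads in controls, which are not bounds. The 8- to 32-fold class had an upper quartile of 0.338. By class, 69, 32, 14 and 9 genes had a response called lower in hsfa1x, and 4, 0, 1 and 0 a higher one. In those 50 genes 41 rose in hsfa1x, 46 in BC3 and 15 in hsfa1y. Of the 47 with a locus tag in the reference, 14 lay beside another of the set, in 6 runs of up to 4 neighbours, so that these genes are not independent in position. The 3 members with a symbol were MpLEA-like18, MpPR1l and MpNBS-LRR17.

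Summed over the 50 genes, heated hsfa1x libraries held 32190 and 31870 CPM and heated BC3 libraries 36920 and 40360 CPM. Controls held 363 and 336.9 CPM in hsfa1x and 230.1 and 224.5 CPM in BC3. The heated libraries of hsfa1x were thus below, and its controls above, those of BC3, without overlap. Control libraries of Tak-1 held 337 and 336.9 CPM, near those of hsfa1x, and those of hsfa1y held 152.8 and 153.6 CPM. By gene, both heated BC3 libraries lay above both heated hsfa1x libraries for 37 of the 50 and below for 3, beside 26.7% and 22.6% of all genes tested. The heated level was called lower in hsfa1x for 20 and higher for 0, beside 7.29% and 5.67% of all genes tested, with a median difference of -0.488. Heated Tak-1 libraries held 40350 and 41660 CPM, heated hsfb1 libraries 24430 and 25140 CPM, and heated hsfa1y libraries 226.3 and 215 CPM.

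**Figure D5:**
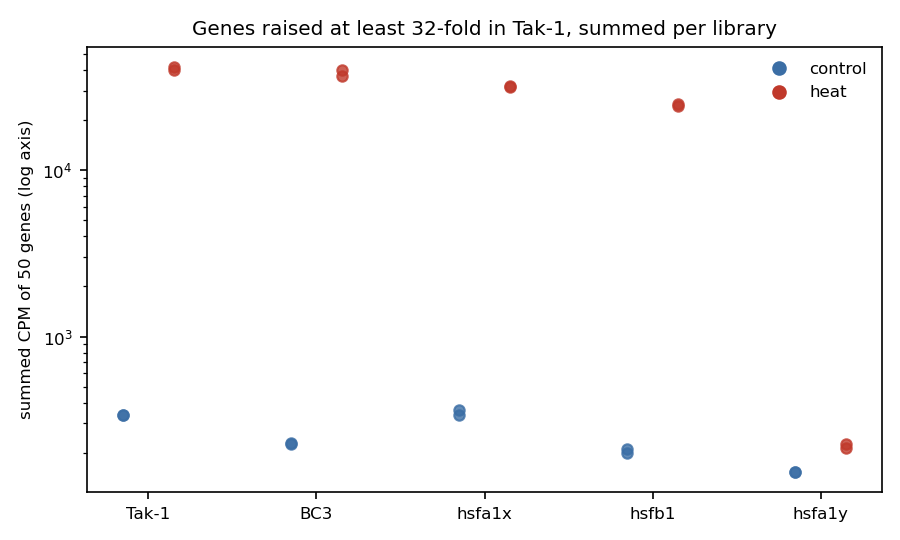
Summed CPM, on a log axis, of the 50 genes raised at least 32-fold in Tak-1 for each control (blue) and heated (red) library of 5 lines. Heated hsfa1x libraries, at 32190 and 31870 CPM, lie between those of BC3 and hsfb1, and heated hsfa1y libraries stay at 226.3 and 215 CPM.

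The hsfa1x and hsfa1y lines responded differently. The response differed for 1974 genes (14.7%), 1025 higher (7.63%) and 949 lower (7.07%) in hsfa1x, and 809 higher and 1701 lower with library totals alone. Line and the sex of the background cannot be told apart in this comparison, so each line was also set against its own wild type. Each line was in its own background only. An effect of the line and one that depends on the background therefore cannot be told apart there either. The departure of hsfa1x from BC3 differed from the departure of hsfa1y from Tak-1 for 866 genes (6.45%), 462 higher (3.44%) and 404 lower (3.01%), and 394 higher and 568 lower with library totals alone. MpHSP90-1 in hsfa1y had 183 and 205 CPM in controls and 399 and 370.5 CPM after heat. Its response was 2.54 ± 0.09 log2 units higher in hsfa1x than in hsfa1y (adjusted p = 3.86e-16), and 2.82 when each line was set against its wild type. MpHSP90-4 had 173 and 186 CPM and 197 and 196 CPM in hsfa1y, and the corresponding values were 2.94 ± 0.11 and 3.10. MpHSP90-2 reached 293 and 258 CPM in heated hsfa1y, with values of 0.90 ± 0.11 and 1.26. The response of MpHSF1 was 0.64 ± 0.20 higher in hsfa1x, a call lost in several fits, among them those of the 8 libraries of both lines (adjusted p = 0.13), of library totals (0.059) and without the first heated hsfa1y library (0.22). Differences of MpHSP90-3 and MpHSP90-5 were 0.66 and -1.46, both lost in the model of the 8 libraries (adjusted p = 0.051 and 0.097).

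Among genes whose response was much higher in hsfa1x than in hsfa1y, MpGH17.15 and MpGH16.8 went in opposite directions. MpGH17.15, of the glycoside hydrolases, rose from 58.7 and 57.2 to 175 and 184 CPM in hsfa1x and fell from 247 and 258 to 23.4 and 31.2 CPM in hsfa1y. In BC3 it had 85.7 and 124 CPM and 189 and 194 CPM. The difference in response was 4.84 ± 0.19 (adjusted p = 1.33e-15), and control levels of the 2 lines did not overlap. MpGH16.8 rose from 16.7 and 18.8 to 42.3 and 37.9 CPM in hsfa1x and fell from 162 and 192 to 34.2 and 41.5 CPM in hsfa1y. MpERF21 had 0.719 and 0.798 CPM in hsfa1x controls and 1.33 and 1.24 CPM after heat. In hsfa1y it had 22.4 and 27.9 CPM in controls and 0.101 and 0.486 CPM after heat. It was low in all hsfa1x libraries and was not among the 2 ERF factors called raised there. In BC3 it had 6.59 and 9.11 CPM in controls and 2.44 and 1.11 CPM after heat. The difference of MpERF21, 7.07 ± 0.58, was the highest among genes with a symbol that met the naming rule. MpERF21 met the limit of 5 CPM in that rule only through the hsfa1y controls. MpExpansin20, raised in hsfa1x, had 2.18 and 2.12 CPM in hsfa1y controls and 1.51 and 1.78 CPM after heat, a difference of 3.18 ± 0.33. It met the limit of 5 CPM only through the heated hsfa1x libraries.

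MpGCAM1 responded more in hsfa1y, where it rose from 1.52 and 0.928 to 34.1 and 28.7 CPM, and the difference was -3.24 ± 0.29. In this comparison it met the limit of 5 CPM only through the heated hsfa1y libraries. MpExpansin6 fell from 141 and 134 to 31.5 and 33.2 CPM in hsfa1x and rose from 42.5 and 38.2 to 85.9 and 86.6 CPM in hsfa1y, a difference of -3.18 ± 0.15. In hsfa1y, MpBHLH4 fell from 26.5 and 26.6 to 8.12 and 5.67 CPM, and MpRLK-Pelle_RKF3c had 11.4 and 8.35 CPM in controls and 9.38 and 5.26 CPM after heat. Their differences were -3.09 ± 0.34 and -3.47 ± 0.49. Among the 958 genes raised in Tak-1, 425 responded less in hsfa1y than in Tak-1, as 7.88% of all genes did. Of these, 410 rose in hsfa1x, with a median log2 change of 1.29, beside 1.64 in BC3 and 0.307 in hsfa1y. Of the other 533, 402 rose in hsfa1x, with medians of 1.1, 1.23 and 1.3 in hsfa1x, BC3 and hsfa1y. The 958 genes were chosen on Tak-1 libraries that also enter the difference of hsfa1y from Tak-1, which favours a smaller response in hsfa1y. The count of 425 is therefore a description. Since the split used the hsfa1y and Tak-1 libraries, those medians of hsfa1y are a description too.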

How the data were processed

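RNA sequencing was done on whole gemmalings of Marchantia polymorpha. Values are read counts per gene as deposited by the authors in 1 table of 28 libraries, 14 groups of 2. STAR is named in the submitters' processing notes. Its version, the counting program, the build and the strand setting were not given in the sources used here. Antisense and near-identical neighbouring genes may therefore share reads. The 1 duplicated identifier was summed. Of 20574 identifiers, 17641 matched a locus tag of the MpTak2_v7.1 annotation by number and 3091 had a symbol.

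Counts were analysed with edgeR 4.0.16 in R 4.3.3: TMM scaling, the default filter on low counts (13432 genes kept, with 99.98% of reads), a quasi-likelihood fit of all 28 libraries and Benjamini-Hochberg adjustment over all genes tested, with calls at an adjusted p below 0.05. Errors of log2 changes are standard errors from the F statistic; CPM are TMM-scaled. The series' design calls the replicates biological without saying what was separate, so p-values measure the spread between these libraries, which may be technical. The columns s11 and s21 were placed in their groups by the deposited sample sheet. Alternatives were other scalings, filters, DESeq2 1.42.0, fits of the compared groups alone, a replicate block and leaving out each library. The procedure was tested on simulated data. Libraries held 17728437 to 23996844 reads; 95% Poisson-based intervals and the floor of 3 counts cover counting error only.

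The members, the 36 gene lists and the tests were chosen with earlier results of these data known. Genes were named by rule: the 12 highest and 12 lowest heat changes with a symbol, a mean of at least 5 CPM, a call and no overlap between groups, plus 4 identifiers each way; 8 and 2 each way for the difference from BC3; 4 each way for that from hsfa1y; all HSP90 and HSF genes; and up to 3 called members each way of the other lists. Genes added for context are MpCYCA and MpMCM2, chosen after their values were seen. A planned search of promoters for heat shock elements was not run, since no sequences were at hand.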

Additional observations from a re-analysis of the deposited data

Results flagged for a closer look

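For each gene below the heat response differed between 2 lines by the edgeR test of the difference itself, and this is what marked it for a closer look.

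Between hsfa1x and BC3, the log2 difference in response was 2.08 for MpLEA-like59, 1.88 for MpCML42, 1.78 for MpERF7, 1.47 for MpBHLH2 and 1.35 for MpEXL4. It was 1.23 for MpCXC1, 1.21 for MpH4d and 1.17 for MpCupin84. Lower responses in hsfa1x were found for MpERF18 (-1.61), MpABCG20 (-1.24), MpUGT11 (-1.18), MpPOD169 (-1.14), MpGCAM1 (-1.13), MpNPF14 (-1.12), MpROXY1 (-1.07) and MpERF8 (-0.92). Among identifiers without a symbol the values were 2.70 for Mp2g25910, 2.11 for Mp2g21040, -4.43 for Mp3g04180 and -2.27 for Mp5g19880. Of the 16 genes with a symbol, 8 kept their call in the model of the 8 libraries of these lines alone.

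Between hsfa1x and hsfa1y, the difference was 7.07 for MpERF21, 4.84 for MpGH17.15, 3.40 for MpGH16.8 and 3.18 for MpExpansin20. It was -3.47 for MpRLK-Pelle_RKF3c, -3.24 for MpGCAM1, -3.18 for MpExpansin6 and -3.09 for MpBHLH4. Of the chaperones, MpHSP90-4 differed by 2.94, MpHSP90-1 by 2.54, MpHSP90-2 by 0.90, MpHSP90-3 by 0.66 and MpHSP90-5 by -1.46, and MpHSF1 differed by 0.64.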

How the results depend on the processing

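Of 978 values of single genes under the alternatives, 920 kept their direction and their side of the threshold, 52 lost a call, 2 gained one and 4 changed sign. The 4 were differences near 0 between hsfa1x and BC3: MpHSP90-1 (0.0723 with library totals alone) and, on leaving out 1 library, MpHSF1 (-0.307 to 0.0365), MpHSP90-2 (-0.0200 to 0.214) and MpHSP90-3 (-0.0550 to 0.388, the latter called without the second hsfa1x control).

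Requiring a 2-fold change gave 735 and 730 genes for heat in hsfa1x and 51 and 56 for its difference from BC3 (higher and lower, here and below). Library totals alone gave 442 and 268 for that difference, 1701 lower for hsfa1x against hsfa1y, 633 lower between heated libraries, and medians of -0.101 and 0.321 for genes raised and lowered in Tak-1; they moved the median of all genes to 0.108 for the difference from BC3 and to -0.141 for that from hsfa1y. Without a filter the higher count was 555 and the median of lowered genes 0.217, and with at least 5 CPM that median was 0.158. Fitting only the groups compared gave 29 and 62 for the difference from BC3, 500 lower against hsfa1y, 222 lower for the comparison against both wild types, 810 and 428 between controls and 389 and 324 between heated libraries. The cause of these shifts was not tested; the last fit has fewer samples.

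With the replicate number as a block, in the same groups, the counts were 1676 and 1906 for heat, 28 and 50 for the difference from BC3, 607 lower against hsfa1y, 252 lower for the comparison against both wild types, 869 and 583 between controls and 439 and 283 between heated libraries. Same-numbered libraries had correlations of their deviations between -0.156 and 0.206, so the numbers were not taken as pairs. Crossing the numbers between lines, added after seeing the data, gave 1467 higher between heated libraries.

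Leaving out 1 library gave 83 to 604 higher and 198 to 983 lower for the difference from BC3, 911 to 1791 and 498 to 1193 between controls (fewest without the first hsfa1x control), 431 to 766 and 428 to 827 between heated libraries, and a median of 0.165 to 0.221 for genes lowered in Tak-1. Each group had 2 libraries, which limits the precision of every difference between lines.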

Other observations

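Some enzyme and transport families not described above are given by count, beside the 19.8% of all genes tested that rose and the 22% that fell in hsfa1x; these lists were chosen after values had been seen, and their shares were mostly near those of all genes. Of 96 glycoside hydrolases 18 rose and 24 fell, and of 37 dirigent proteins, which guide the coupling of phenolic radicals, 7 rose and 5 fell. Of 30 SNARE and RAB genes, which act in vesicle traffic, 7 rose and 4 fell in hsfa1x, and 13 rose and 3 fell in BC3. Of 27 ABCG transporters 5 rose and 7 fell in hsfa1x, and 5 rose and 14 fell in BC3. The BC3 counts stand beside 23.9% of all genes tested that rose and 24% that fell there. By gene, the response was called lower in hsfa1x for 1 SNARE or RAB gene and higher for 0. For ABCG transporters, 1 was called in each direction. Between-line differences of these counts were not tested as lists.

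Of 17 peroxins 3 rose and 1 fell in hsfa1x, and 10 rose and 0 fell in BC3, where 23.9% of all genes tested rose and 24% fell. The response was called lower in hsfa1x than in BC3 for 3 peroxins and higher for 0. MpPEX5, the receptor that brings proteins to the peroxisome, rose from 114 and 97.9 CPM to 175 and 186 CPM in hsfa1x. Of 4 chlorophyll genes 0 rose and 0 fell in hsfa1x. In MpCLE1, a small signal peptide gene, control libraries had 3.64 and 4.47 CPM and heated libraries 0.754 and 0.946 CPM, a fall of 2.25 ± 0.27 on the log2 scale.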
